A study of Mus musculus with 12 samples.

Results

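Transcript levels of 41 genes of the cell cycle and of DNA replication were followed in eyelid tissue of mice across 2 diets and 3 times of day. The genes were taken by symbol from a list that sets no condition on their measured values but was drawn up with earlier results of these data known, and they make up 41 of the 21936 genes in the deposited table. All 41 were found once each and passed the filter on low values, which 13228 genes passed. By role they fall into 7 cyclins and direct controls of Cdk1, 9 genes of entry into S phase and origin licensing, 7 of the replication fork and nucleotide supply, 8 mitotic kinases and checkpoint or APC/C components, 8 of the spindle, kinetochore and cytokinesis, and 2 chromatin proteins of dividing cells.

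The tissue came from male C57BL/6 mice bought at 6 to 8 weeks of age and kept under 12 h of light per day. High-fat (HF) mice received a diet with 60 kcal% fat (D12492) and control (CTL) mice an age-matched standard diet with 10 kcal% fat, and no group carries a transgene or mutation in the labels. Tissue was taken at 9h, 15h and 21h, given by the submitters as 9 am, 3 pm and 9 pm, with 2 libraries for each diet and time and 12 in all. The sources used here do not give the hour at which the lights came on. The diet lasted 3 months in the sample labels and 4 months in the series text, so the age at collection is not settled. The labels name the tissue meibomian gland, the oil-secreting gland of the eyelid margin, whereas the series text describes complete upper and lower lids. Markers of oil-secreting gland cells summed to 5892 to 9249 FPKM in HF libraries and 5300 to 7969 FPKM in CTL libraries. Skeletal muscle markers summed to 2143 to 5531 FPKM in HF libraries and 2210 to 5226 FPKM in CTL libraries, so other tissues of the lid are in the samples. Whether each library holds the RNA of a single mouse or of several pooled mice is unknown, and p-values therefore measure the spread between these libraries.

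In a dividing cell, cyclins bind and activate cyclin-dependent kinases, and E2F transcription factors switch on the genes of S phase. Cdc6 and Cdt1 load the Mcm2-7 ring onto replication origins, and Cdc45 and the GINS complex turn that ring into the active helicase. In G2 and mitosis, Cdk1 with cyclin B, the Aurora kinases and Plk1 drive entry into division, and the APC/C with Cdc20 ends it by marking cyclin B for destruction. In the meibomian gland and in skin, division is largely a matter of basal cells at the edge of the acini and of the epidermis and hair follicles, while the lipid-filled or cornified cells above them no longer divide. In bulk tissue, fewer dividing cells and less RNA of these genes per cell cannot be told apart.

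Genes of S phase and genes of mitosis are known to carry different elements near their start sites, and 5 windows are shown as examples. Rrm2, Cdc20 and Ccnb2 each passed the threshold in a comparison that follows. Mcm6 and Mcm5 did not with all libraries, and they are among the 4 of 14 S phase genes that hold E2F letters. Each window is the 250 bases before the RefSeq start site on the gene's own strand (GRCm38.p6), with matches in capitals. The letters searched on both strands were TTTCCCGC, TTTCGCGC, TTTGCCGC and TTTGGCGC for an E2F element, TTTGAA for the cell cycle homology region (CHR) of mitosis genes, and CCAAT for the element bound by NF-Y. Matches on both strands that overlap are merged into 1 run of capitals. The windows lie at chr1:128359706-128359955 on the minus strand for Mcm6, chr8:75109259-75109508 on the plus strand for Mcm5, chr12:24708004-24708253 on the plus strand for Rrm2, chr4:118437344-118437593 on the minus strand for Cdc20 and chr9:70421555-70421804 on the minus strand for Ccnb2.
Mcm6: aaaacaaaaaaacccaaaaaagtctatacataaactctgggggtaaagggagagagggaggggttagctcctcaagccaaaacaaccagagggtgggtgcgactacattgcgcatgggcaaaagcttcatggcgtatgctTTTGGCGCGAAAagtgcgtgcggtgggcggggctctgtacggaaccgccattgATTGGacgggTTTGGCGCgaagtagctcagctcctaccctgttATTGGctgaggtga
Mcm5: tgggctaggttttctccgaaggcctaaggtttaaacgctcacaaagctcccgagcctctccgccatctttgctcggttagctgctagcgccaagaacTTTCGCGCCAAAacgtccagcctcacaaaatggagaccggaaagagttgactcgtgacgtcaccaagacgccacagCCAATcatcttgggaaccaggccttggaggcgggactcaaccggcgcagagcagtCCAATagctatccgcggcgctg
Rrm2: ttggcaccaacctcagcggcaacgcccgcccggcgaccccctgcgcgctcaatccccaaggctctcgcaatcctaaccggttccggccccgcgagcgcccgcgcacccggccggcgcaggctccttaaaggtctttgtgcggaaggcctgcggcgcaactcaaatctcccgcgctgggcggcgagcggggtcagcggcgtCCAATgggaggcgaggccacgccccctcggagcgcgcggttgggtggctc
Cdc20: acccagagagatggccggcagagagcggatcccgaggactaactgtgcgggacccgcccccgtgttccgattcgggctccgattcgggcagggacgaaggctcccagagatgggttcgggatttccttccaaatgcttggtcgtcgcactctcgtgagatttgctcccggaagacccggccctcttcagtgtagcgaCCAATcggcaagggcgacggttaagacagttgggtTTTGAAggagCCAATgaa
Ccnb2: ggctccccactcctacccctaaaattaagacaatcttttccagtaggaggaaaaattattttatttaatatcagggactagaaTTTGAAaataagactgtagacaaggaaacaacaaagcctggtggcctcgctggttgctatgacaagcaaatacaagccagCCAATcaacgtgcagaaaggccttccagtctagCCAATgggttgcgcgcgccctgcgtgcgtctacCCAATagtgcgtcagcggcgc

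The Mcm6 and Mcm5 windows hold E2F letters with CCAAT elements, the Cdc20 and Ccnb2 windows hold the CHR letters with CCAAT elements, and the Rrm2 window holds 1 CCAAT element alone. A window was found for 33 of the 41 genes, and 2 of them, Mcm7 and Prc1, have more than 1, so a gene was counted where any of its windows held the letters. The E2F letters were found for 4 of 14 S phase genes (Cdc6, Mcm5, Mcm6 and Mcm7) and for 0 of 13 mitosis genes, against 2.16% of all 27025 genes in the RefSeq table. The CHR letters, with or without CCAAT, were found for 4 of 13 mitosis genes (Cdc20, Kif11, Prc1 and Ube2c) and 2 of 14 S phase genes (Cdc45 and Mcm2), against 18.3% of all genes. The same genes held the CHR letters together with CCAAT in the same window, against 6.45% of all genes. CCAAT with or without other letters was found for 11 of 13 mitosis genes and 9 of 14 S phase genes, against 37.5% of all genes. These matches describe the letters in these windows and were not tested as binding sites.

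Depth was 14079167 to 17867452 recovered reads per library, at which 1 read on 2 kb of exon is worth 0.0279 to 0.0355 FPKM (fragments per kilobase of exon and per unit of depth). All the genes were well covered, with Cdc6 the lowest at 51 to 136 reads per library. The HF pair at 9h stands apart within its group, since replicate 6 lies above replicate 7 in 32 of the 41 genes and in 67.8% of all genes tested. In the other pairs, the library with the lower number was higher in 24 of the 41 for CTL at 9h (48.6% of all genes), 27 for HF at 15h (54.0%), 15 for CTL at 15h (45.7%), 18 for HF at 21h (54.3%) and 26 for CTL at 21h (50.4%). The mean log2(FPKM + 1) of the 16 mitosis genes was 2.53 in HF 9h replicate 6 and 2.13 in HF 9h replicate 7, against 2.53 and 2.47 in the CTL libraries of that time. HF replicate 6 at 15h and HF replicate 6 at 21h are high in immediate early genes, which answer quickly to stimulation: 6 such genes (Fos, Fosb, Egr1, Jun, Junb and Atf3) summed to 554 and 749 FPKM there and to 161 to 340.3 FPKM in the other libraries. Where leaving out this pair ends a call of a cell cycle or replication gene, this is stated with the gene or in the later accounts of left-out libraries. For some genes the value without the pair is given as well.

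Levels per length spanned more than an order of magnitude. Pcna, the sliding clamp of the replication fork, was the most abundant, with 31.1, 35.0 and 40.9 FPKM as the lowest, median and highest of 6 HF libraries and 35.3, 39.0 and 43.1 FPKM in 6 CTL libraries. Cdc20 and Ccnb2 came next, at means of 14.2 and 12.2 FPKM over all libraries. The least abundant were the licensing factor Cdc6 at 1.12 FPKM, the kinetochore protein Cenpf at 1.5 FPKM and the GINS subunit Gins2 at 1.66 FPKM. Cenpf had 1.13, 1.36 and 2.03 FPKM as the lowest, median and highest HF libraries and 1.21, 1.49 and 1.99 FPKM in CTL libraries, and these ranges overlap almost entirely.

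**Figure D1:**
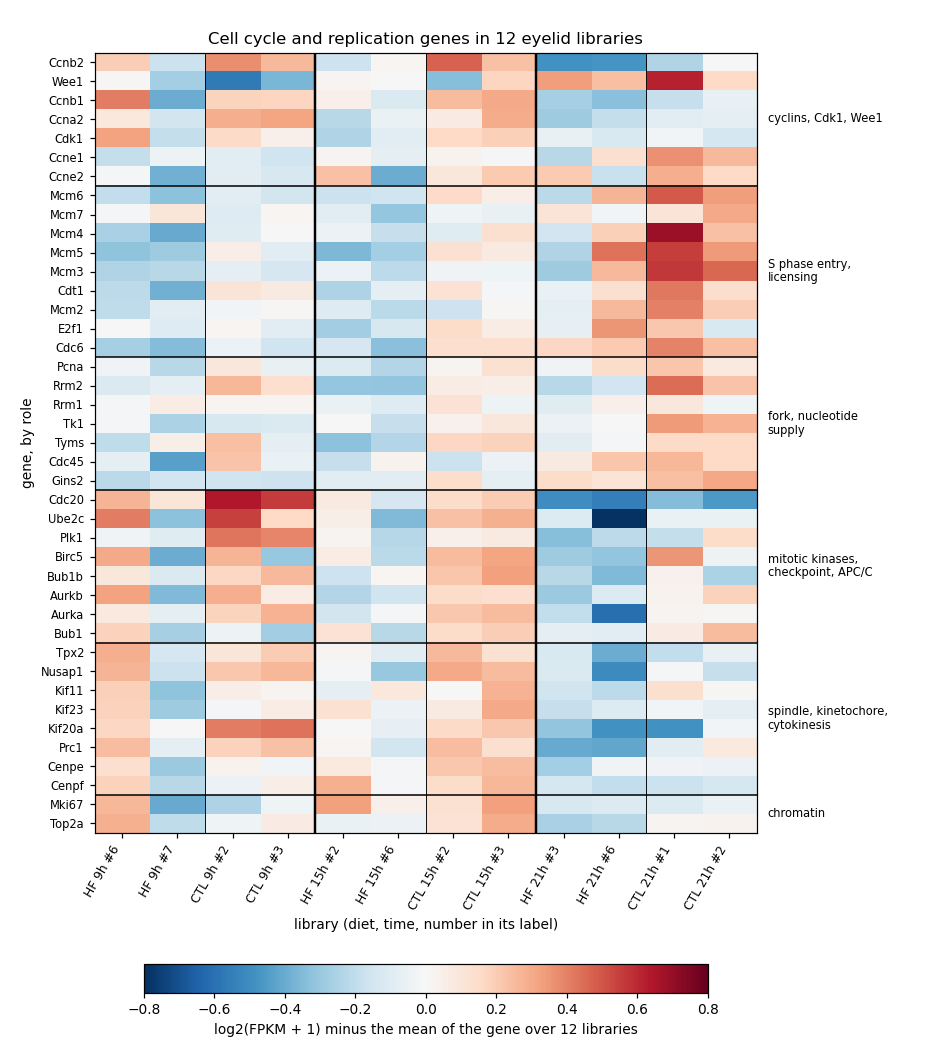
Each row is 1 of the 41 genes, grouped by role, and each column 1 of the 12 libraries ordered by time with HF left of CTL; colour gives log2(FPKM + 1) minus the mean of the gene over the 12 libraries. HF columns are mostly blue beside their CTL neighbours, and HF 9h replicate 6 is an exception in the mitosis rows. At 21h the mitosis genes turn blue on average, and the licensing genes turn red on average except in HF replicate 3.

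High-fat feeding was compared with the control diet by averaging the difference over the 3 times. One gene, Rrm2, fell past the threshold, and the other 40 did not reach it. The log2 difference (HF minus CTL) was nevertheless below 0 for 40 of the 41 genes, against 52.0% of all genes tested. Its median was -0.22, against -0.01 over all genes. The single gene above 0 was Wee1, the kinase that holds Cdk1 inactive, at 0.11 ± 0.11 (SE). A call means an adjusted p under 0.05 by limma with Benjamini-Hochberg adjustment over all 13228 genes, and 1.98% of all genes were called, 1.78% downward and 0.204% upward. At an unadjusted p under 0.05 there were 21 of the 41, against 14.1% of all genes.

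Rrm2 (ENSMUSG00000020649) encodes the radical-bearing small subunit of ribonucleotide reductase, which makes deoxynucleotides and is made in S phase. The gene lies on GRCm38 chromosome 12 from 24708241 to 24714146 on the plus strand. In HF libraries Rrm2 had 8.36 and 8.64 FPKM at 9h, 7.18 and 7.14 FPKM at 15h, and 7.71 and 8.09 FPKM at 21h. In CTL libraries it had 11.2 and 10.1 FPKM at 9h, 9.56 and 9.52 FPKM at 15h, and 12.8 and 10.9 FPKM at 21h. Every HF library lies below every CTL library, a separation found for no other gene of the 41 and for 1.86% of all genes. The mean was 7.85 ± 0.618 FPKM in HF mice and 10.7 ± 1.24 FPKM in CTL mice (SD, n = 6 each), a log2 difference of -0.40 ± 0.06 (SE; limma, adjusted p = 0.00875). The call held when each library was left out in turn and ended narrowly without both of the libraries high in immediate early genes (limma, adjusted p = 0.0504), where Mcm5 was called in its place and 38 of the 41 genes lay below 0. By time, the log2 difference was -0.29 at 9h, -0.37 at 15h and -0.52 at 21h, none of which was called alone. Rrm1, the large subunit of the same enzyme, spanned 5.92 to 6.73 FPKM in HF libraries and 6.24 to 7.04 FPKM in CTL libraries, and these ranges overlap.

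The other genes of the fork and of nucleotide supply lay below 0 as well, 7 of 7 with a median of -0.16. Tyms, thymidylate synthase, had 2.15, 2.59 and 3.11 FPKM as the lowest, median and highest HF libraries, against 2.75, 3.44 and 3.68 FPKM in CTL libraries. Its ranges overlap, and its log2 difference of -0.27 ± 0.08 (SE) was not called (limma, adjusted p = 0.148). Pseudogenes named after Tyms and Pcna exist in the annotation, and reads could have been divided between copies by the authors' counting.

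Among the 9 genes of S phase entry and licensing, 9 lay below 0 with a median of -0.25, and 0 were called. Cdt1, which loads the Mcm ring together with Cdc6, had 3.39, 4.18 and 5.27 FPKM as the lowest, median and highest HF libraries, against 4.65, 5.17 and 6.67 FPKM in CTL libraries. Its log2 difference was -0.28 ± 0.08 (SE; limma, adjusted p = 0.134). Mcm6, a subunit of the helicase ring, had 9.01, 10.1 and 14.1 FPKM in HF libraries and 10.3, 12.5 and 16.6 FPKM in CTL libraries in the same order. For Cdt1 and Mcm6, both HF libraries lie below both CTL libraries at each time although the ranges over all times overlap.

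Among the cyclins and Cdk1, 6 of 7 genes lay below 0 with a median of -0.18. Ccnb2, a B-type cyclin of mitosis, had 8.25, 10.5 and 13.8 FPKM as the lowest, median and highest HF libraries, against 9.96, 14.4 and 16.9 FPKM in CTL libraries. Its log2 difference of -0.36 ± 0.09 (SE) missed the threshold (limma, adjusted p = 0.0768). Ccna2, the cyclin of S phase and G2, had 5.13, 5.63 and 6.90 FPKM in HF libraries and 5.99, 7.47 and 8.27 FPKM in CTL libraries, with a log2 difference of -0.27 ± 0.07 (SE; limma, adjusted p = 0.111).

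The 8 mitotic kinase and checkpoint genes had the lowest median, -0.28, with 8 of 8 below 0 and 0 called. Aurka, the kinase of centrosomes and spindle poles, had 2.35, 3.73 and 4.37 FPKM as the lowest, median and highest HF libraries, against 4.13, 4.84 and 5.17 FPKM in CTL libraries. Its log2 difference was -0.32 ± 0.08 (SE; limma, adjusted p = 0.101). Plk1, the Polo-like kinase, had 3.94, 4.62 and 5.34 FPKM in HF libraries and 4.49, 5.76 and 7.42 FPKM in CTL libraries, at -0.30 ± 0.08 (SE; limma, adjusted p = 0.111). The 8 spindle and kinetochore genes had a median of -0.15, again with 8 of 8 below 0. Of the 2 chromatin genes, Mki67, the gene of the Ki-67 antigen, had a log2 difference of -0.00 ± 0.12 (SE), and the topoisomerase gene Top2a had one of -0.17.

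**Figure D2:**
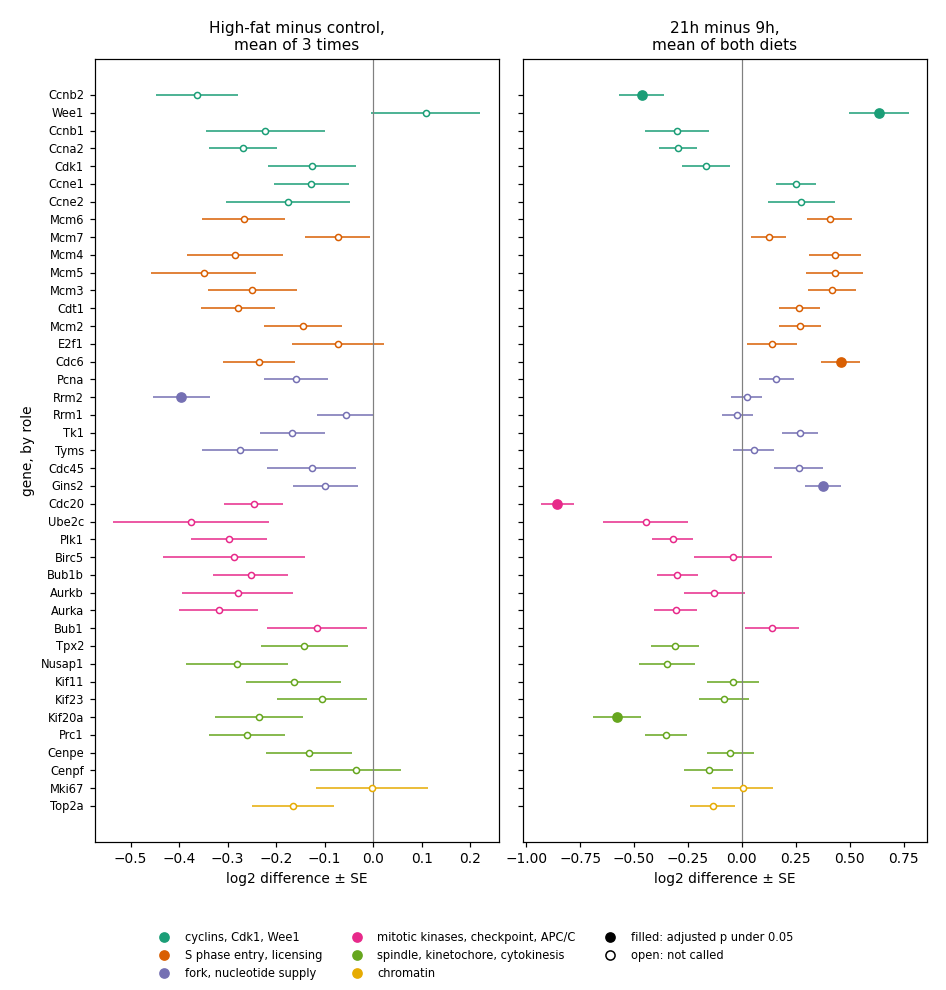
Points are log2 differences of the 41 genes with SE bars, for HF minus CTL averaged over times on the left and for 21h minus 9h over both diets on the right; filled points were called at an adjusted p under 0.05. On the left all genes except Wee1 lie at or below 0 and Rrm2 alone is filled, while on the right the licensing genes lie above 0 and the mitosis genes mostly below, with 6 filled.

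Both HF libraries lay below both CTL libraries at all 3 times for 10 of the 41 genes, against 3.54% of all genes. These were Aurka, Ccna2, Ccnb2, Cdc20, Cdc6, Cdt1, Mcm3, Mcm6, Plk1 and Rrm2, which come from 4 of the 6 role groups. Taking each time alone, this held for 16 of 41 genes at 9h (14.8% of all genes), 31 at 15h (26.7%) and 26 at 21h (22.2%). No gene of the 41 was called at a single time, where 0.0%, 0.0605% and 0.00756% of all genes were called at 9h, 15h and 21h. At an unadjusted p under 0.05 there were 5 of 41 at 9h against 7.22% of all genes, 7 at 15h against 11.6%, and 9 at 21h against 5.37%. The log2 difference lay below 0 for 34 of 41 genes at 9h (44.5% of all genes), 39 at 15h (56.7%) and 40 at 21h (54.1%), with medians of -0.14, -0.23 and -0.21 in that order.

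The 9h value rests on the pair of HF libraries that differ from each other. Without HF 9h replicate 7, 21 of 41 genes lay below 0 at 9h with a median of -0.035, and without HF 9h replicate 6, 36 lay below 0 with a median of -0.28. In the average over times, 38 to 40 of the 41 lay below 0 whichever single library was left out. The interaction of diet and time was called for 0 of the 41 genes and for 0 genes in all (limma, 3.06% of all genes and 0 of the 41 at an unadjusted p under 0.05, also 0 genes called by limma-voom on recovered reads). The smallest unadjusted p of a member was 0.155, for Ccne1, so a difference of the diet effect between times was not detected for these genes.

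Other genes of the same pathways were examined as lists. Over all genes tested, 52.0% had a diet difference below 0 and 1.98% were called. Of 37 tested replication genes outside the 41, 35 had a log2 difference below 0 with a median of -0.10, and 1 was called. That gene, Uhrf1, which guides DNA methylation behind the fork, fell to 6.47 ± 0.647 FPKM in HF libraries, against 8.48 ± 1.35 FPKM in CTL libraries (SD over the 3 times, n = 6 libraries each). Its log2 difference was -0.34 ± 0.07 (SE; limma, adjusted p = 0.0348). Of 48 further mitosis genes, 45 lay below 0 with a median of -0.16. Cks2, a small subunit of cyclin-dependent kinases, fell to 18.0 ± 2.30 FPKM in HF libraries, against 25.6 ± 3.22 FPKM in CTL libraries (log2 difference -0.48 ± 0.08, limma adjusted p = 0.0162). The next smallest p-values in these lists belonged to Gmnn, the inhibitor of Cdt1, at -0.18, the polymerase alpha subunit Pola1 at -0.18, the spindle protein gene Ckap2l at -0.26 and the cytokinesis regulator Racgap1 at -0.25, none of them called (limma, adjusted p = 0.264, 0.272, 0.0687 and 0.0788 in that order). Without both of the libraries high in immediate early genes, the calls of Uhrf1 and Cks2 ended (limma, adjusted p = 0.0714 and 0.0576 in that order).

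Of 26 genes of G1 control and arrest, 0 were called and 17 lay below 0, against 1.98% and 52.0% of all genes in that order. The proliferation-associated transcription factor gene Myc averaged 33.6 ± 6.60 FPKM in HF libraries and 23.8 ± 1.78 FPKM in CTL libraries (limma, adjusted p = 0.113). The antiproliferative gene Btg2 averaged 110.3 ± 54.9 FPKM in HF mice and 50.3 ± 6.97 FPKM in CTL mice (SD, n = 6 each; limma, adjusted p = 0.183). The Cdk4/6 inhibitor gene Cdkn2c averaged 11.2 ± 0.587 FPKM in HF libraries and 12.5 ± 0.567 FPKM in CTL libraries (limma, adjusted p = 0.269). Myc and Btg2 are also immediate early genes. Without HF replicate 6 at 15h and at 21h, Myc averaged 31.9 ± 7.40 FPKM and Btg2 78.3 ± 25.9 FPKM in the other HF libraries (SD, n = 4), and the log2 differences, 0.46 for Myc and 0.98 for Btg2 with all libraries, were 0.32 and 0.47 (limma, adjusted p = 0.240 and 0.0898 in that order).

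Markers of other cells were also compared between the diets. Over all genes tested, 52.0% lay below 0 and 48.0% above, and 1.78% were called lower and 0.204% higher. T cell markers had 9 of 9 tested genes below 0, of which 5 fell (Cd2, Cd3d, Cd8a, Cd8b1 and Lck), and they summed to 11.4 to 17.2 FPKM in HF libraries against 22.8 to 42.8 FPKM in CTL libraries. Interferon response genes fell in 10 of 10 cases and summed to 50.1 to 132.5 FPKM in HF libraries against 315 to 599 FPKM in CTL libraries. Neither pair of ranges overlaps. Markers of the oil-secreting gland cells lay on the other side, with 9 of 9 tested genes above 0, a median of 0.25 and Soat1, which esterifies cholesterol, called higher. They were above 0 in 5 of 9 cases at 9h and in 9 of 9 at 15h and at 21h, and their sums, given above, overlap between the diets. Macrophage markers had 8 of 9 genes below 0 and 0 called, at 337 to 1095 FPKM in HF libraries and 804 to 1424 FPKM in CTL libraries. B and plasma cell markers had 4 of 4 tested genes below 0 with Cd79b called, at 18.1 to 156.8 FPKM in HF libraries and 20.4 to 109.5 FPKM in CTL libraries. Basal keratinocyte markers had 6 of 8 genes below 0 with 0 called and a median of -0.09, at 4436 to 5129 FPKM in HF libraries and 4727 to 5472 FPKM in CTL libraries. Hair matrix and cortex markers had 9 of 9 genes above 0 with 0 called and a median of 0.07. They were above 0 in 9 of 9 cases at 9h and at 21h and in 2 of 9 at 15h. Their sums were 720 to 1482 FPKM in HF libraries and 653 to 1366 FPKM in CTL libraries. Below 0 were 6 of 8 suprabasal keratinocyte, 5 of 6 fibroblast, 5 of 8 skeletal muscle and 4 of 7 conjunctiva markers, with 0 called. Of 6 endothelium markers 4 lay above 0, with 0 called. None of these genes was at 0 in all libraries. The part of these cells in the lower values of the cell cycle genes was not tested.

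Time of day was compared over both diets, since the series title names diurnal rhythm. Between 9h and 21h the genes of the early and the late cell cycle lay on opposite sides of 0. Of the 16 S phase and replication genes 15 had a log2 difference (21h minus 9h) above 0, with a median of 0.27 and Cdc6 and Gins2 rising past the threshold. Of the 16 mitosis genes 15 lay below 0, with a median of -0.30 and Cdc20 and Kif20a falling past it. Over all genes tested, 59.9% lay above 0 and 40.1% below, and the median was 0.05. Of the cyclins and Cdk1 group, Wee1 rose and Ccnb2 fell, so that 3 of the 41 were called upward and 3 downward. The background was 2.59% of all genes upward and 3.43% downward, 6.02% in all. At an unadjusted p under 0.05 there were 23 of the 41, against 28.3% of all genes.

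**Figure D3:**
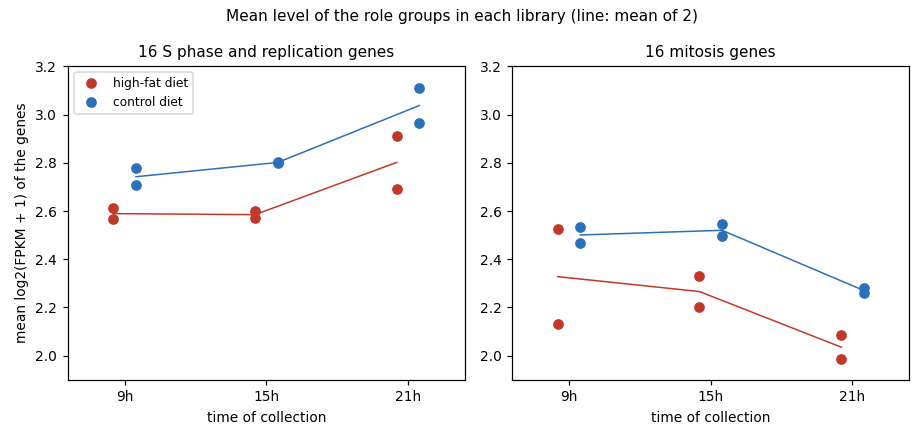
Points give the mean log2(FPKM + 1) of the 16 S phase genes on the left and of the 16 mitosis genes on the right in each library, with HF in red left of CTL in blue at each time and a line through the mean of each pair. The S phase genes are highest at 21h, up to 3.11 in CTL replicate 1, and the mitosis genes lowest at 21h, down to 1.98 in HF replicate 6.

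Cdc20 (ENSMUSG00000006398), the activator of the APC/C that carries the CHR and CCAAT letters printed above, showed the clearest course. At 9h it had 16.7 and 14.7 FPKM in HF libraries and 21.9 and 20.6 FPKM in CTL libraries. At 15h it had 14.4 and 12.4 FPKM in HF libraries and 15.2 and 15.9 FPKM in CTL libraries. At 21h it had 9.38 and 9.05 FPKM in HF libraries and 10.5 and 9.65 FPKM in CTL libraries. All 4 libraries at 21h lie below all 4 at 9h, as for 7.87% of all genes and for Kif20a besides among the 41, and at each time both HF libraries lie below both CTL libraries. Means by time were 18.5 ± 3.36 FPKM at 9h, 14.5 ± 1.52 FPKM at 15h and 9.65 ± 0.638 FPKM at 21h (SD, n = 4 each). The log2 difference of 21h minus 9h was -0.85 ± 0.07 (SE; limma, adjusted p = 0.00436), and it was -0.70 in HF mice and -1.005 in CTL mice.

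Cdc20 was also the only one of the 41 called by the F test over the 3 times (limma, F = 66.5, adjusted p = 0.0104, against 1.46% of all genes called), and 22 of the 41 had an unadjusted p under 0.05 in that test, against 23.6% of all genes. The F test call of Cdc20 ended without CTL 21h replicate 2 (limma, adjusted p = 0.0570), CTL 9h replicate 2 (0.0983), CTL 9h replicate 3 (0.0695), HF 21h replicate 3 (0.0589) or HF 21h replicate 6 (0.0654). Its diet difference of -0.25 ± 0.06 (SE) was not called (limma, adjusted p = 0.0944). The gene lies on GRCm38 chromosome 4 from 118432901 to 118437352 on the minus strand and shares 53 of its 1868 exon bases with Elovl1 on the other strand. Elovl1, a fatty acid elongase gene, averaged 1081, 1104 and 1130 FPKM at 9h, 15h and 21h. The sources used here do not state whether the counting used strand.

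Kif20a, a kinesin of cytokinesis, had 2.68 and 2.29 FPKM in HF libraries and 3.35 and 3.43 FPKM in CTL libraries at 9h. At 15h it had 2.27 and 2.13 FPKM in HF libraries and 2.65 and 2.81 FPKM in CTL libraries, and at 21h 1.64 and 1.34 FPKM in HF libraries and 1.35 and 2.24 FPKM in CTL libraries. All 4 libraries at 21h lie below all 4 at 9h, with a log2 difference of -0.58 ± 0.11 (SE; limma, adjusted p = 0.0282). It shares 1271 of its 4338 exon bases with Cdc23 on the other strand, whose own log2 difference of -0.12 was not called.

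Ccnb2 had 13.8 and 10.5 FPKM in HF libraries and 15.7 and 14.5 FPKM in CTL libraries at 9h. At 15h it had 10.5 and 12.1 FPKM in HF libraries and 16.9 and 14.3 FPKM in CTL libraries, and at 21h 8.25 and 8.33 FPKM in HF libraries and 9.96 and 11.9 FPKM in CTL libraries. The values at 9h and 15h are alike and those at 21h lower, although CTL 21h replicate 2 lies above HF 9h replicate 7. Ccnb2 fell by 0.46 ± 0.10 (SE) on the log2 scale at 21h relative to 9h (limma, adjusted p = 0.0381). A pseudogene named after Ccnb2 exists in the annotation, so its reads are uncertain in the same way as those of Tyms.

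Cdc6 had 0.735 and 0.644 FPKM in HF libraries and 1.02 and 0.866 FPKM in CTL libraries at 9h. At 15h it had 0.899 and 0.655 FPKM in HF libraries and 1.29 and 1.29 FPKM in CTL libraries, and at 21h 1.34 and 1.41 FPKM in HF libraries and 1.75 and 1.47 FPKM in CTL libraries. All 4 libraries at 21h lie above all 4 at 9h, as for Gins2 and Wee1 among the 41 and for 6.24% of all genes. Cdc6 rose by 0.46 ± 0.09 (SE) on the log2(FPKM + 1) scale, which understates the change of so low a gene (limma, adjusted p = 0.0292).

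Gins2 had 1.27 and 1.37 FPKM in HF libraries and 1.37 and 1.35 FPKM in CTL libraries at 9h. At 15h it had 1.48 and 1.47 FPKM in HF libraries and 1.92 and 1.51 FPKM in CTL libraries, and at 21h 1.92 and 1.85 FPKM in HF libraries and 2.11 and 2.28 FPKM in CTL libraries. All libraries at 21h lie above all at 9h, with a log2 difference of 0.38 ± 0.08 (SE; limma, adjusted p = 0.0362). Gins2 shares 2758 of its 4097 exon bases with Gse1 on the other strand, which fell over the same interval (log2 difference -0.48, limma adjusted p = 0.0445).

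Wee1 had 10.5 and 8.52 FPKM in HF libraries and 6.77 and 7.91 FPKM in CTL libraries at 9h. At 15h it had 10.6 and 10.4 FPKM in HF libraries and 8.07 and 11.9 FPKM in CTL libraries, and at 21h 13.5 and 12.6 FPKM in HF libraries and 16.6 and 11.9 FPKM in CTL libraries. Both HF libraries lie above both CTL libraries at 9h, which holds for 15.0% of all genes and for no other of the 41, the diets overlap at 15h and 21h, and all libraries at 21h lie above all at 9h. Wee1 rose by 0.64 ± 0.14 (SE) on the log2 scale (limma, adjusted p = 0.0358), with 0.42 in HF mice and 0.85 in CTL mice. Wee1 is known in mouse liver as a direct target of the circadian clock. Of 15 genes of the clock and its output factors, 8 were called between 21h and 9h, against 6.02% of all genes. Of these, 6 were called upward and 2 downward. Any part of the clock in the rise of Wee1 was not tested.

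**Figure D4:**
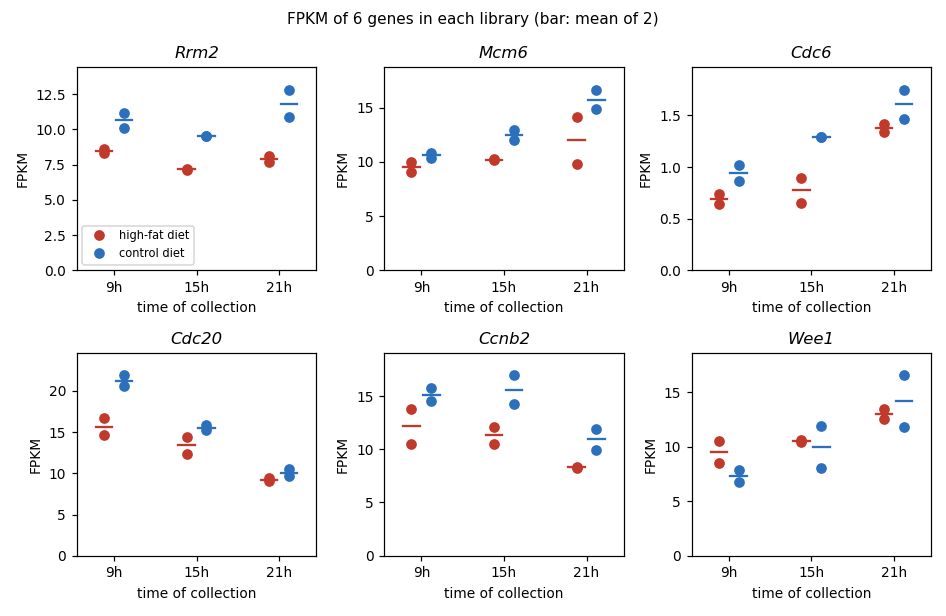
Each panel gives the FPKM of 1 gene in each library at 9h, 15h and 21h, with HF in red left of CTL in blue and a bar at the mean of each pair; every axis starts at 0. Rrm2 is lower in HF libraries at each time, Cdc20 and Ccnb2 are lowest at 21h, and Mcm6, Cdc6 and Wee1 are highest there.

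The subunits of the Mcm helicase ring shared a direction and were not called. Mcm6 had a log2 difference (21h minus 9h) of 0.41 ± 0.10 (SE; limma, adjusted p = 0.0521). Mcm6 had 9.97 and 9.01 FPKM in HF libraries and 10.9 and 10.3 FPKM in CTL libraries at 9h, 10.2 and 10.2 FPKM in HF libraries and 13.0 and 12.0 FPKM in CTL libraries at 15h, and 9.81 and 14.1 FPKM in HF libraries and 16.6 and 14.8 FPKM in CTL libraries at 21h. The pair of HF libraries at 21h is split, with replicate 3 at the level of 9h and replicate 6, high in immediate early genes, near the CTL libraries. Mcm3 had 6.91 and 7.02 FPKM in HF libraries and 7.86 and 7.49 FPKM in CTL libraries at 9h, 8.04 and 7.06 FPKM in HF libraries and 8.16 and 8.11 FPKM in CTL libraries at 15h, and 6.66 and 10.2 FPKM in HF libraries and 12.8 and 11.8 FPKM in CTL libraries at 21h. It shows the same split between the HF libraries of 21h. Log2 differences for Mcm3, Mcm4 and Mcm5 were 0.42, 0.43 and 0.43, and for Mcm2 and Mcm7 0.27 and 0.12, none of them called. Rrm2 did not share this course, with a log2 difference of 0.02.

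Within HF mice 13 of the 16 S phase genes had a 21h minus 9h difference above 0 (not Mcm7, Rrm1 and Rrm2) and 16 of 16 mitosis genes lay below 0. Within CTL mice 16 of 16 S phase genes lay above 0 and 13 of 16 mitosis genes below 0 (not Birc5, Bub1 and Kif11). All genes tested lay above 0 in 57.5% of cases in HF mice and 60.2% in CTL mice. The steps between neighbouring times gave 0 called genes of the 41, against 0.0227% of all genes for 15h minus 9h and 0.0% for 21h minus 15h. At an unadjusted p under 0.05, 2 of the 41 passed for 15h minus 9h, against 23.2% of all genes, and 20 of the 41 for 21h minus 15h, against 4.45%.

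The calls between 21h and 9h depend on single libraries. Of the 41 genes, 6 were called with all libraries, 11 without HF 9h replicate 6 and 3 without HF 9h replicate 7. Leaving out any library of the CTL 9h, CTL 21h or HF 21h pairs left Cdc20 alone, and leaving out either CTL library at 15h left Cdc20 and Wee1. Without both of the libraries high in immediate early genes, Cdc20 was the only one called. Without HF 9h replicate 7, 15 of 16 mitosis genes lay below 0 and 15 of 16 S phase genes above. Without HF 9h replicate 6, 10 of 16 mitosis genes lay below 0, with a median of -0.22, and 14 of 16 S phase genes above.

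Other replication genes lay on the same side as the S phase members. Of 37 tested, 34 had a 21h minus 9h difference above 0 with a median of 0.26, and 5 rose past the threshold. These were the primase subunit Prim1 at 0.65, the origin-firing kinase Cdc7 at 0.74, the fork protein Wdhd1 at 0.62, the chromatin remodeller Hells at 0.60 and the origin recognition subunit Orc6 at 0.70 (limma, adjusted p = 0.0226, 0.0315, 0.0347, 0.0413 and 0.0498 in that order). Without both of the libraries high in immediate early genes, none of these 5 was called (limma, adjusted p = 0.0670 to 0.113). Prim1 averaged 3.34, 4.51 and 5.81 FPKM at 9h, 15h and 21h. Of 48 other mitosis genes, 34 lay below 0 with a median of -0.11, and Nek2, a centrosomal kinase, averaged 3.22, 2.57 and 2.03 FPKM at the 3 times and fell by 0.47 ± 0.10 (SE) on the log2 scale (limma, adjusted p = 0.0347; 0.0921 without that pair of libraries).

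Markers of other tissues differed between times as well. Over all genes tested, 40.1% lay below 0 and 59.9% above at 21h relative to 9h, and 3.43% were called lower and 2.59% higher. Skeletal muscle markers had 8 of 8 genes below 0 at 21h relative to 9h, of which 5 fell, and summed to 4340 to 5531 FPKM at 9h, 2143 to 3771 FPKM at 15h and 2210 to 3440 FPKM at 21h. Hair matrix and cortex markers, which belong to the hair follicle, had 9 of 9 genes below 0 with 0 called. They summed to 1140 to 1460 FPKM at 9h, 720 to 1482 FPKM at 15h and 653 to 1305 FPKM at 21h. Basal keratinocyte markers had 5 of 8 genes below 0 with 0 called and a median of -0.04, at 4560 to 5472, 4499 to 5316 and 4436 to 5373 FPKM at the 3 times. Interferon response genes had 10 of 10 genes above 0 with 0 called and a median of 0.45, and T cell markers 7 of 9 above 0 with 0 called. The part of these tissues and cells in the time differences was not tested.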

How the data were processed

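RNA was extracted with Trizol and libraries were made with the NEBNext Ultra II RNA kit, per the labels' protocols. Per the submitters' processing notes, the build was mm9 and the tools included HISAT2 2.0.5, HTSeq 0.9.1 and DESeq 1.30.0, with no step given for each. The deposited values are FPKM made by the authors, and the sources used here do not state how they were computed, with which annotation or with which strand setting. The gene IDs go against mm9: 21894 of 21936 are in GENCODE M21 (GRCm38), whose merged exon lengths turn 98.1% of nonzero values into whole reads within 0.02 reads. Coordinates of genes are from that annotation and promoter windows from RefSeq.

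Genes above 1 FPKM in at least 2 of 12 libraries (13228) were tested on log2(FPKM + 1) with limma 3.58.1 (trend; R 4.3.3), with a mean for each of 6 groups and 6 residual degrees of freedom. P-values were adjusted by Benjamini-Hochberg over all genes tested, with calls under 0.05. Alternatives were a pseudocount of 0.1, no filter, libraries centred on their median, limma-voom on recovered reads, a replicate block, single times and libraries left out. The test was checked on simulated data. Depth figures bear on counting error only.

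Values are given for each gene called, for the 8 smallest p-values in the diet and the time test, for the 3 highest and 3 lowest genes, and for pathway genes called or among the 3 smallest diet p-values of their list. Rrm1, Top2a and Mki67 values by diet and the immediate early genes were added after their values were seen. The members and lists were chosen with earlier results of these data known.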

Additional observations from a re-analysis of the deposited data

Results flagged for a closer look

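In groups of 6 libraries of 1 diet, which span 3 times, 10 single values of 82 groups examined lay far from the other 5. A rate of about 1 in 20 groups holds only for independent values drawn alike. Levels differ between the times and several of these values share a library, so the count cannot be compared with that rate. By library, HF 21h replicate 6 was high for 3 Mcm subunits. Mcm2 had 5.07 FPKM there and 3.37 to 3.80 FPKM in the other HF libraries, Mcm5 had 12.4 FPKM and 6.77 to 7.43 FPKM, and Mcm6 had 14.1 FPKM and 9.01 to 10.2 FPKM. HF 9h replicate 6 was high for Cdk1, with 5.43 FPKM and 3.35 to 3.94 FPKM in the others. It was also high for Aurkb, with 5.98 FPKM and 3.37 to 4.18 FPKM in the others, and for Top2a, with 11.1 FPKM and 7.26 to 8.58 FPKM.

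In CTL libraries, replicate 1 at 21h was high for Cdt1 at 6.67 FPKM, with 4.65 to 5.32 FPKM in the others, and for Mcm4 at 16.7 FPKM, with 9.30 to 12.0 FPKM in the others. CTL 9h replicate 3 was low for Tyms at 2.75 FPKM, with 3.43 to 3.68 FPKM in the others. CTL 15h replicate 3 was high for Kif23, a kinesin of cytokinesis, at 3.66 FPKM, with 2.60 to 2.98 FPKM in the others.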

How the results depend on the processing

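Among the 22 results on single genes, no log2 difference changed sign, and the F tests over time have no sign to change. Medians near 0 did change sign: 21h minus 9h as given here and 15h minus 9h (0.01 with all libraries, -0.04 without HF 9h replicate 7). The median of the mitosis genes for diet at 9h was reversed as well. It was -0.16 with all libraries, 0.09 without HF 9h replicate 7 and 0.11 with the block. Number 7 belongs to HF 9h replicate 7 alone, so the block gives that library its own term and these alternatives are not independent. At 9h the diets share no library number (6 and 7 for HF, 2 and 3 for CTL), so the block value there also rests on other times. In both alternatives 11 of 16 mitosis genes lay above 0. Of the 22 results on single genes, 324 of 396 alternative values kept their side of the threshold, 65 lost the call and 7 gained one. Only a result called with all libraries can lose its call. Between 21h and 9h the call was lost in 12 of 18 alternatives for Gins2, 11 each for Kif20a, Cdc6 and Ccnb2, 10 for Wee1 and 1 for Cdc20. The F test call of Cdc20 was lost in 7 of 18 and the diet call of Rrm2 in 2 of 18. For diet, 1 gene of the 41 was called, against 0 with the replicate block (where 31 of 41 lay below 0, 16 of 16 S phase and 9 of 16 mitosis genes, with a median over the 41 of -0.12 against -0.22), 1 (Mcm5) without both of the libraries high in immediate early genes and 1 to 4 with a library left out: 2 without HF 21h replicate 3, 4 without HF 21h replicate 6 (Mcm3, Mcm5, Mcm6 and Rrm2) and 4 without HF 9h replicate 6 (Aurkb, Ccnb1, Ccnb2 and Rrm2). The diet median at 9h was -0.28 to -0.035 with a library left out. For 15h minus 9h, 0 to 2 genes were called. For 21h minus 9h, 6 genes were called, against 11 with libraries centred on their median, 0 with the replicate block, 1 without both of the libraries high in immediate early genes and 1 to 11 with a library left out; the median of -0.02 was -0.16 with the block and -0.16 to 0.053 with a library left out. The F test over time called 1 gene, against 0 with the block, 0 without both of the libraries high in immediate early genes and 0 to 9 with a library left out. Over all genes, leaving out a library gave 143 to 293 calls for diet (262 with all), 4 to 3375 for 21h minus 9h (796), 1 to 2509 for the F test (193) and 0 to 2712 for 15h minus 9h (3). Libraries of the same number showed no shared sign of deviation, with correlations from -0.50 to 0.29 over 12 pairs. With 2 libraries per group each value has a mirror of opposite sign for the other library, so whether the numbers pair the libraries is not settled. The block fit kept 2 residual degrees of freedom, so calls lost there are not read as weaker effects. Its diet median over the 41 genes moved as well, as given here. Library numbers 6 and 7 occur only in HF and number 1 only in CTL libraries, so the block is partly mixed with diet. The cause of the other changes was not tested. With 2 libraries per group, differences at single times below those called could not be told from the spread, and depth limits Cdc6 most.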
